A study of Arabidopsis thaliana with 18 samples.

Results

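The comparison described here asks whether a cytokinin changed gene expression differently in the cambium than in the procambium of the Arabidopsis thaliana root. It is a difference of differences: the response to BAP in cambium (BAP minus untreated) minus the response to BAP in procambium (BAP minus untreated), on the log2 scale. The rule that chose it names this contrast and its 4 groups, and no measured value was used. It rests on 11 of the 18 arrays of the study: 3 of untreated cambium, 3 of BAP-treated cambium, 2 of untreated procambium and 3 of BAP-treated procambium. A positive difference means that BAP moved a gene more upward, or less downward, in cambium than in procambium. A negative difference means the reverse.

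Affymetrix ATH1 arrays were hybridised with RNA from GFP-positive protoplasts that had been isolated by fluorescence-activated sorting. All 4 groups came from Columbia wild-type seedlings that carried ARR15::GFP, a reporter in the endoplasmic reticulum under the promoter of ARR15, a type-A response regulator gene, and all were 8 days old at harvest. Cambium is what the labels call the sorted cells of the basal root segment, and procambium those of the apical segment, of roots cut along their length into 3 equal parts. Treated seedlings spent 6 days on regular medium and 48 h on medium with 100 nM BAP, a synthetic cytokinin, while the untreated seedlings received none. A cell entered the sort only if the ARR15 promoter was active in it, and this promoter responds to cytokinin itself. Since RNA was taken from sorted pools, fewer cells of a type and less RNA per cell cannot be told apart.

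Cytokinins are sensed by histidine kinase receptors, which pass phosphate through shuttle proteins to type-B response regulators, the transcription factors of the pathway. These switch on the type-A response regulators, which in turn dampen the signal. In the root, cytokinin is known for promoting the divisions of the vascular cambium in the older part and for its antagonism with auxin in the vascular cylinder of the tip. Procambium is the meristematic tissue from which the primary vascular tissues form, and cambium is the later meristem that thickens the root.

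On each of the 11 arrays 48.2% to 49.9% of the probe sets reached log2 5, and 28.8% to 31% lay within 0.1 of the lowest deposited value. Replicates correlated with Pearson's r between 0.916 and 0.975 across probe sets. The lowest values included BAP procambium replicate 1, at 0.918 with replicate 2 and 0.928 with replicate 3, where the latter pair reached 0.975. A group is called dim below where all of its arrays lay under log2 5, since the background correction behind the deposited values sets how far below that a level falls. Of the listed regulators of cambium and procambium, 5 of 26 could be measured. The list does not separate these tissues, so the levels of its genes cannot check the labels. CLE44, for a peptide that acts on the vascular meristem, stood at log2 6.29 to 7.01 on the 6 cambium arrays and at 2.18 to 2.25 on the 5 procambium arrays. The receptor-like kinase gene MOL1, a regulator of cambium activity, stood at 9.15 to 10.29 against 6.92 to 7.66.

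The response to BAP differed between the zones for 1184 of 13202 probe sets kept, or 8.97% (limma, Benjamini-Hochberg adjusted p at most 0.05). The difference was positive for 507 probe sets (3.84%) and negative for 677 (5.13%), and 24.1% of the probe sets had an unadjusted p of at most 0.05. The median size of the called differences was 2.34 for the positive and -2.64 for the negative, beside a median of 0.07 over all probe sets kept. BAP by itself raised 1018 probe sets (7.71%) and lowered 944 (7.15%) in cambium, and raised 1005 (7.61%) and lowered 850 (6.44%) in procambium. The count was sensitive to single arrays, with 741 calls without BAP cambium replicate 1 and 789 without BAP procambium replicate 3. The positive count was 307 without BAP cambium replicate 1, 318 without BAP procambium replicate 3 and 294 without untreated procambium replicate 1, and the negative count was 434 without BAP cambium replicate 1. In 187 of the positive and 313 of the negative probe sets the call held in each of the 11 fits that left out 1 array.

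**Figure D1:**
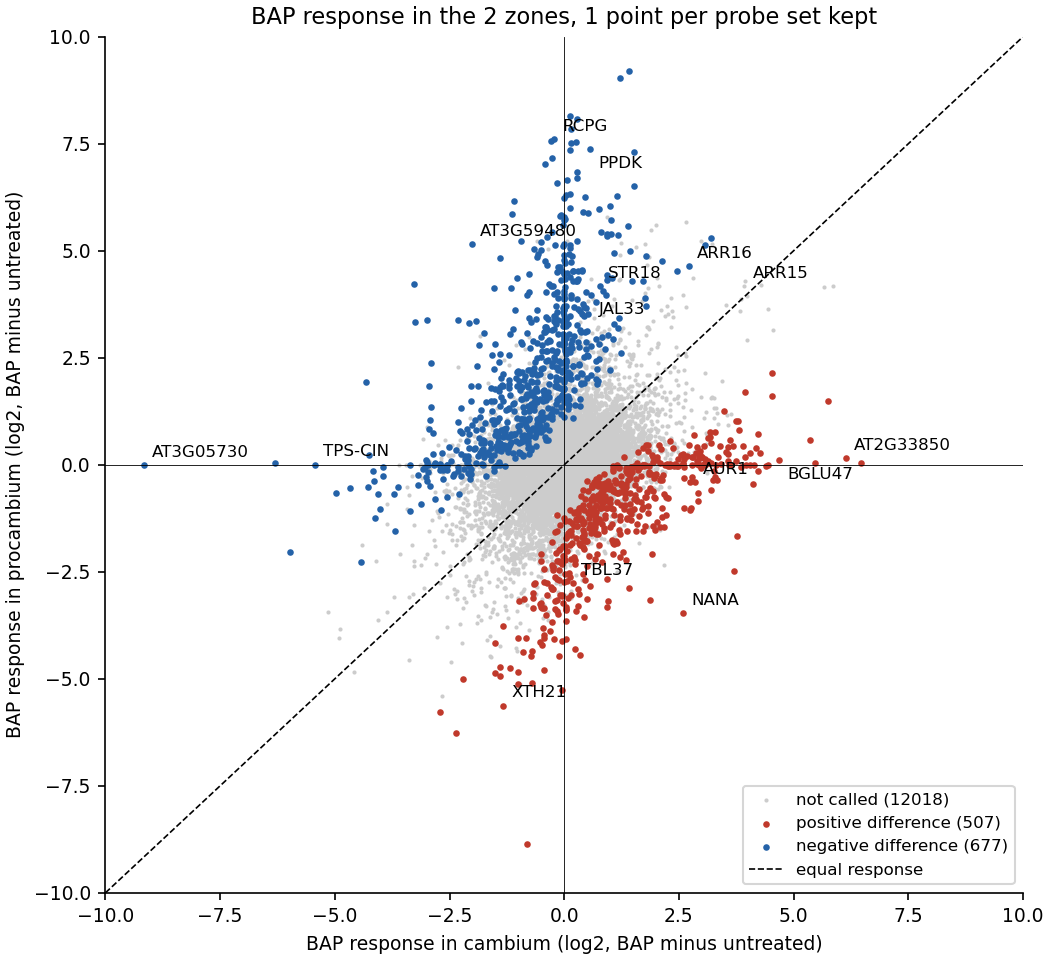
BAP response in cambium (x axis, log2) against the response in procambium (y axis, log2), with 1 point for each of the 13202 probe sets kept. The 507 positive differences (red) lie below the dashed line of equal response and the 677 negative differences (blue) above it. Many called points lie along an axis, where the response of 1 zone was near 0, and ARR15 lies near the line.

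Most called differences came from probe sets in which BAP passed the test in 1 zone only. The largest class, 396 probe sets with a negative difference, rose in procambium and was not called in cambium. In 184 the level fell in cambium and was not called in procambium, and 39 fell in cambium and rose in procambium. Among the positive differences, 237 probe sets rose in cambium alone, 207 fell in procambium alone, and 13 rose in cambium and fell in procambium. A response in the same direction but of unequal size was rare: 19 negative and 5 positive probe sets rose in both zones, and 2 and 4 fell in both. Another 37 negative and 41 positive probe sets passed the test of the difference with neither response called.

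The classes can also be read by where the zones stood before treatment. Over all 13202 probe sets kept, the gap between the zones was smaller with BAP than without in 57.6%. Of the 396 probe sets that rose only in procambium, 151 narrowed the gap between the zones: the median level of untreated procambium was 6.25 and that of BAP procambium 8.63, beside 8.73 and 8.90 in untreated and BAP cambium. The other 245 widened it, with median levels of 3.88 and 7.88 in procambium against 3.02 and 2.96 in cambium. Of the 184 that fell only in cambium, 145 (78.8%) narrowed the gap. Of the 207 that fell only in procambium 138 (66.7%) narrowed it, and of the 237 that rose only in cambium 74 (31.2%) did. None of these shares was tested against the 57.6%.

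**Figure D2:**
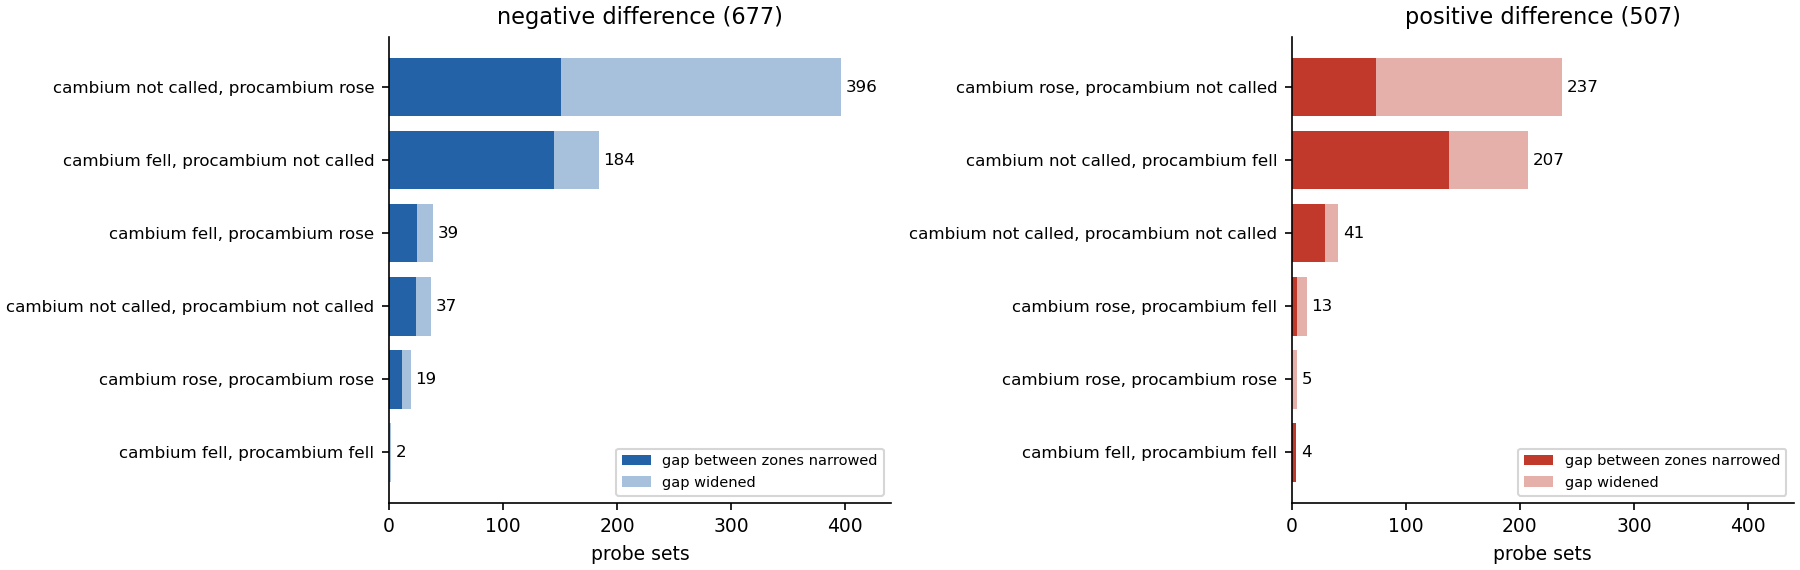
Number of probe sets (x axis) with a called negative (left, 677) or positive (right, 507) difference, by the response called in each zone. Dark bars are probe sets whose gap between cambium and procambium was smaller with BAP than without, and pale bars those whose gap was larger. The class that rose only in procambium is the largest, with 396 probe sets, of which 245 widened the gap.

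Among the genes of the cytokinin pathway, ARR15 and ARR16 rose in both zones, and only for ARR16 did the difference pass the test. ARR15, the type-A response regulator whose promoter drove the GFP, stood at 2.52, 2.51 and 2.96 in untreated cambium and at 6.56, 6.37 and 6.83 in BAP cambium. In procambium it stood at 2.68 and 2.76 without BAP and at 7.66, 6.24 and 6.76 with it. Each treated array lay above each untreated array, where both untreated groups of ARR15 were dim, and the treated arrays of the zones overlapped. Its difference of response was -0.24 ± 0.57 (SE), with a 95% interval of -1.47 to 0.98 (limma, adjusted p = 0.835). ARR16, another type-A response regulator, stood at 2.54, 2.2 and 2.2 in untreated cambium and at 5.37, 4.61 and 5.10 in BAP cambium. In procambium it stood at 2.2 on both untreated arrays and at 6.60, 6.48 and 7.44 on the BAP arrays, so that the treated arrays of the zones did not overlap. Both untreated groups were dim for ARR16 too, and with values raised to log2 5 its difference was -1.68. As deposited, ARR16 rose by 2.72 in cambium and by 4.64 in procambium, a difference of -1.92 ± 0.50 (limma, adjusted p = 0.026). That call was lost without BAP cambium replicate 2 (adjusted p = 0.063), BAP procambium replicate 3 (0.0652), untreated procambium replicate 1 (0.0694) or untreated procambium replicate 2 (0.064).

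ARR15 and ARR16 were the only 2 of 10 listed type-A regulators with a probe set kept, and none of the 22 listed receptor, phosphotransfer and type-B genes had one. Of the genes for cytokinin synthesis, breakdown and glucosylation, 2 of 16 were kept. UGT76C2, which attaches glucose to cytokinins and so inactivates them, stood at 6.58, 6.81 and 6.08 in untreated cambium and 6.59, 6.90 and 7.08 in BAP cambium, against 5.29 and 5.37 in untreated and 6.58, 7.50 and 7.52 in BAP procambium. The zones overlapped with BAP but not without it, and the difference was -1.51 ± 0.44 (limma, adjusted p = 0.0469). It was called in 2 of the 11 fits with 1 array left out, those without BAP procambium replicate 1 and untreated cambium replicate 3, and its adjusted p reached 0.12 without untreated procambium replicate 1. Its neighbour in function UGT76C1 had a difference of 0.23 ± 0.49 (limma, adjusted p = 0.813), with a 95% interval of -0.82 to 1.28.

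Regulators of the vascular meristem gave 1 call among 5 genes kept. Over all 7010 genes kept, 3.54% were called positive and 5.11% negative, the background for this and each later count of genes called. CLE41, which encodes the peptide that keeps cambium cells dividing and undifferentiated, stood at 9.0, 8.60 and 8.57 in untreated cambium and 8.60, 8.87 and 8.39 in BAP cambium. In procambium it stood at 4.72 and 5.60 without BAP and at 7.39, 6.24 and 6.55 with it, below cambium on each array. Its difference was -1.67 ± 0.48 (limma, adjusted p = 0.0424). It was called only without BAP procambium replicate 2 and without untreated procambium replicate 2 among the 11 fits with 1 array left out, with an adjusted p of 0.184 without untreated procambium replicate 1. With values raised to 5 it was -1.53 (adjusted p = 0.0518). CLE44, MOL1 and the bHLH factor gene LHW had differences of 0.19, -0.69 and -0.57, and PHV, a class III HD-ZIP gene of vascular patterning, 1.39 (limma, adjusted p from 0.116 to 0.901). LBD16, a gene of lateral root founder cells, fell by 3.35 in cambium while its response in procambium of -1.09 was not called. Its difference of -2.26 (limma, adjusted p = 0.0476) was -0.32 after values below log2 5 were raised to 5, where each BAP cambium array lay at 2.83 to 3.47, and was then not called (adjusted p = 0.762). It was called in 2 of the 11 fits with 1 array left out, those without BAP procambium replicate 2 and untreated cambium replicate 1, and reached an adjusted p of 0.138 without untreated procambium replicate 2. None of 6 auxin response and conjugation genes passed, and neither did IRX10, the gene kept for xylem, nor OPS, the gene kept for phloem.

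Cell division genes gave 1 call among 4 kept, for AUR1, the Aurora kinase gene whose product acts on the mitotic spindle. AUR1 stood at 6.42, 4.83 and 6.25 in untreated cambium and at 8.99, 8.53 and 8.51 in BAP cambium, with no overlap. In procambium it stood at 7.08 and 7.83 without BAP and at 7.32, 6.64 and 7.20 with it, so that the groups overlapped there. It rose by 2.85 in cambium, its response of -0.40 in procambium was not called, and the difference was 3.25 ± 0.58 (limma, adjusted p = 0.0033). AUR2 and MCM7, the latter for a subunit of the replicative helicase, rose in cambium too, by 2.12 and 1.68. Their differences of 1.51 and 0.95 did not pass the test (limma, adjusted p = 0.326 and 0.278), nor did that of -0.29 for AUR3 (0.854).

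The largest positive difference among genes with a symbol, after values below log2 5 were raised to 5, belonged to NANA, which encodes an aspartic protease. It stood at 6.67, 7.42 and 8.26 in untreated cambium and at 10.12, 10.12 and 9.89 in BAP cambium. In procambium it stood at 9.19 and 7.57 without BAP and at 4.88, 5.15 and 4.71 with it. Treated and untreated arrays did not overlap in either zone, and the zones moved apart in opposite directions. The difference was 6.06 ± 0.68 (limma, adjusted p = 0.000144), from a rise of 2.60 in cambium and a fall of 3.47 in procambium. GT72B1, for a glycosyltransferase of monolignols and foreign compounds, and APS3, for an enzyme that activates sulfate, also rose in cambium (by 1.36 and 1.09) and fell in procambium (by 1.55 and 1.17). Their differences were 2.91 ± 0.56 and 2.27 ± 0.47 (limma, adjusted p = 0.00525 and 0.00824).

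Other positive differences came with a called rise in cambium and no called response in procambium. BGLU47, of the beta-glucosidase family, stood at 4.15, 2.43 and 3.35 in untreated cambium and at 7.96, 8.68 and 7.33 in BAP cambium. All 5 procambium arrays lay between 2.17 and 2.54, and both procambium groups were dim. Its difference was 4.57 ± 0.69 (limma, adjusted p = 0.00114), and 2.99 with values raised to 5. The serine carboxypeptidase-like gene scpl35 stood at 7.81, 8.28 and 6.94 in untreated and at 9.40, 9.81 and 9.20 in BAP cambium, against 7.28 to 8.10 over the 5 procambium arrays. The treated cambium arrays lay above all others, and the difference was 2.43 ± 0.46 (limma, adjusted p = 0.00486). DRT100, named for DNA-damage tolerance, and the MAP kinase gene ATMPK13 rose in cambium by 1.72 and 2.49. In procambium the responses of scpl35 and DRT100 were -0.63 and -0.99 and were not called. For ATMPK13 both procambium groups were dim, with all 5 procambium arrays between 2.17 and 2.58. DRT100 had a difference of 2.71 (limma, adjusted p = 0.0233) and was lost without BAP cambium replicates 1 (0.0614) or 3 (0.0527), BAP procambium replicate 3 (0.0587), untreated cambium replicate 1 (0.0512) or untreated procambium replicates 1 (0.0572) or 2 (0.0704). ATMPK13 had a difference of 2.34 (limma, adjusted p = 0.0434) and was called in 3 of the 11 fits with 1 array left out, those without BAP cambium replicate 3, BAP procambium replicate 1 and untreated cambium replicate 1, with an adjusted p of 0.108 without BAP cambium replicate 1.

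A further set of positive differences came with a called fall in procambium and no called response in cambium. XTH21, for an enzyme that cuts and rejoins the xyloglucan of the wall, stood at 8.21 and 7.42 in untreated procambium and at 2.17, 2.17 and 2.22 in BAP procambium. Cambium lay at 2.17 to 4.32 on all 6 arrays, so that untreated procambium was the only group that was not dim. Its difference was 4.28 ± 0.78 (limma, adjusted p = 0.00381), and 2.81 with values raised to 5. TBL37, of a family whose members acetylate wall polysaccharides, stood at 11.07 and 10.36 in untreated and at 8.06, 7.90 and 7.91 in BAP procambium, while cambium lay at 8.47 to 9.20 without BAP and 8.83 to 9.14 with it. Untreated procambium was thus above cambium and BAP procambium below it, with no overlap, and the difference was 2.94 ± 0.41 (limma, adjusted p = 0.000683). The receptor-like kinase gene B120, the actin gene ACT11 and SAH7 fell in procambium by 3.12, 1.84 and 2.45. Their responses in cambium of -0.68, 1.05 and -0.25 were not called. The differences were 2.44, 2.89 and 2.21 (limma, adjusted p = 0.0057, 0.00545 and 0.00486). ATMYC1, a bHLH gene of epidermal cell patterning, fell in procambium by 2.87, and its response of 1.41 in cambium was not called. Its difference of 4.28 ± 1.03 (limma, adjusted p = 0.0191) was 3.31 after values below log2 5 were raised to 5, and was lost without BAP procambium replicate 3 (0.0504), untreated procambium replicate 1 (0.0574) or untreated procambium replicate 2 (0.0543).

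**Figure D3:**
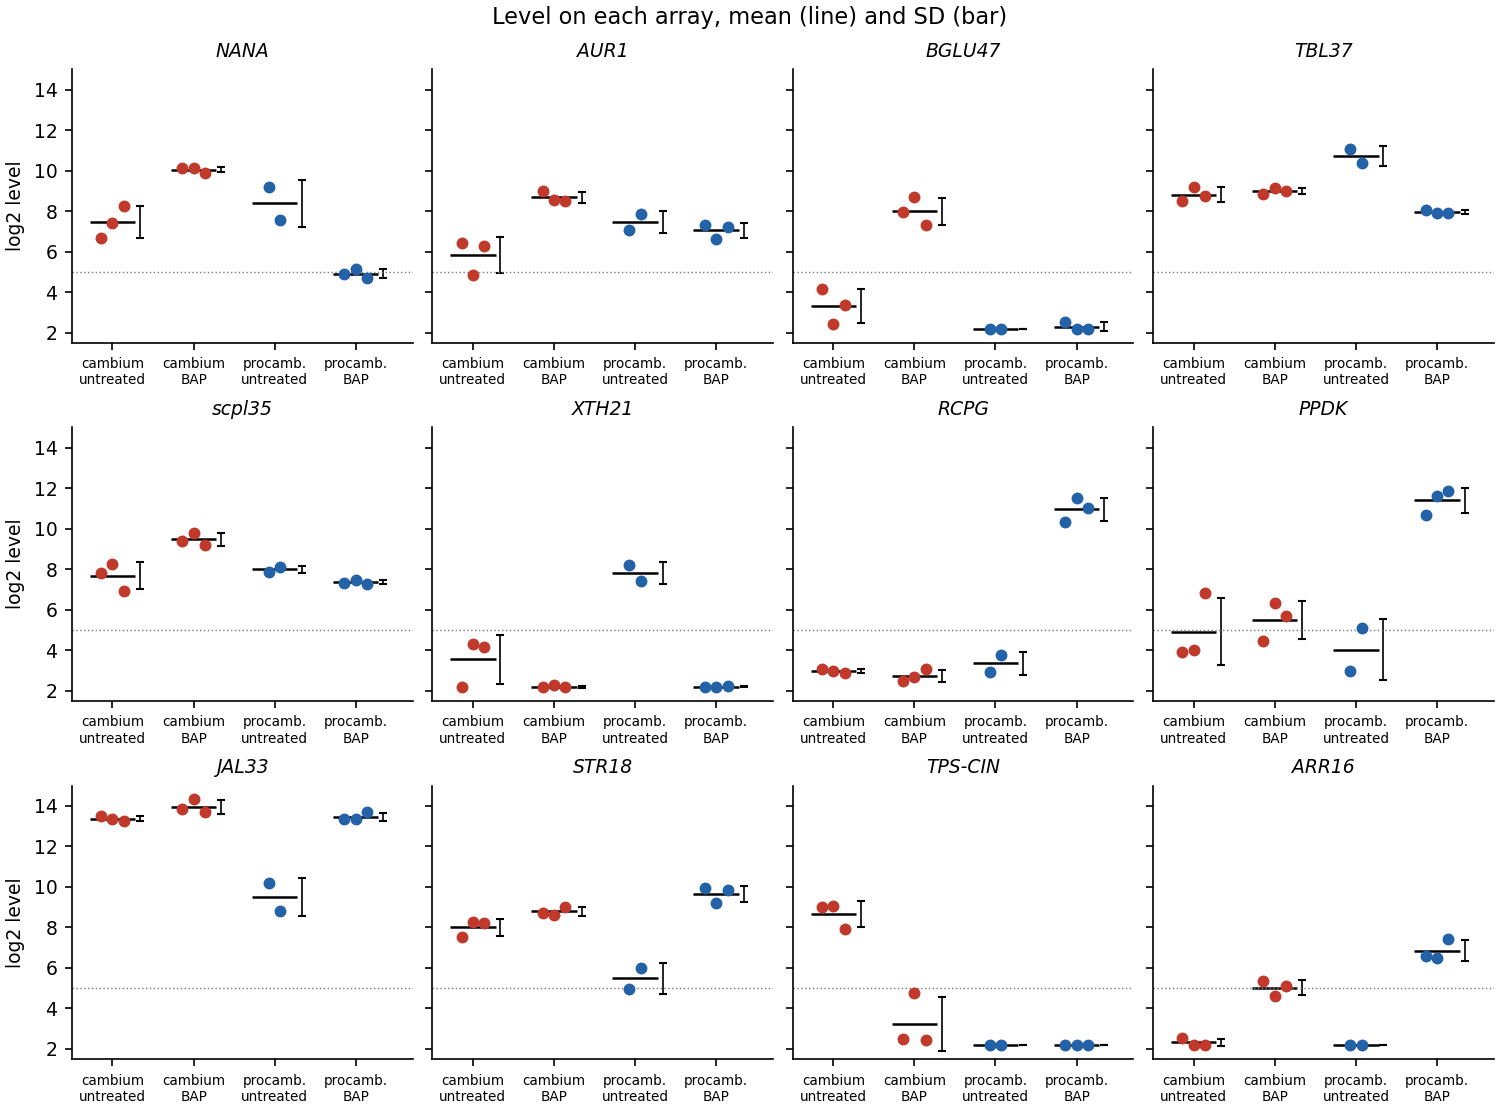
Log2 level (y axis) of 12 genes on each array, with cambium in red and procambium in blue. Lines are group means, bars are SDs over 3 arrays (2 for untreated procambium), and the dotted line is log2 5. The top 6 genes have a positive difference and the others a negative one; BGLU47 was bright only in BAP cambium, RCPG and PPDK were high only in BAP procambium, and JAL33 with BAP was above log2 13 in both zones.

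The wall families that hold XTH21 and TBL37 were measured more widely. Of 16 TBL genes kept, 4 had a called positive difference and none a negative one, with a median of 0.58 over the 16, beside a median of 0.05 and 3.54% positive calls over all 7010 genes kept. Besides TBL37 these were TBL38, with 2.08 ± 0.42 (limma, adjusted p = 0.00634), TBL30 with 2.26 and TBL34 with 2.65. TBL34 was called in 3 of the 11 fits with 1 array left out, those without BAP procambium replicate 1, untreated cambium replicate 3 and untreated procambium replicate 1. TBL30 was called in 3 too, those without BAP procambium replicate 1, untreated cambium replicate 2 and untreated procambium replicate 1. Without untreated procambium replicate 2 their adjusted p was 0.142 and 0.157. All 4 fell in procambium, by 1.69 to 4.16, and none was called in cambium.

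XTH genes gave 2 positive calls and 1 negative among 7 kept, beside 3.54% positive and 5.11% negative over all 7010 genes kept. XTH32 had a difference of 2.05 (limma, adjusted p = 0.0389) that was called in 3 of the 11 fits with 1 array left out, those without BAP procambium replicate 1, untreated cambium replicate 3 and untreated procambium replicate 2, and was 0.67 with values raised to 5 (adjusted p = 0.424). XTH20 went the other way, with 6.64 and 4.87 in untreated and 8.89, 7.04 and 7.97 in BAP procambium against 8.93 to 10.39 over the cambium arrays. Its difference was -3.00 ± 0.76 (limma, adjusted p = 0.0232), and it was lost without BAP cambium replicate 1 (0.0565), untreated cambium replicate 1 (0.0512) or untreated procambium replicate 2 (0.111). None of 12 expansin genes, whose products loosen walls, was called, and EXPB3 came nearest at -2.61 (limma, adjusted p = 0.0516).

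Endoglucanase genes of family 9, whose products cut glucans of the wall, gave calls in both directions, 2 positive and 3 negative among 7 kept, beside 3.54% positive and 5.11% negative over all 7010 genes kept. GH9B6 lay between 2.2 and 2.98 on all cambium and untreated procambium arrays and at 8.51, 9.66 and 10.23 in BAP procambium, with a difference of -7.44 ± 0.87 (limma, adjusted p = 0.000188). GH9C1 followed the same pattern, with 8.5, 6.90 and 7.88 in BAP procambium, 2.17 to 3.27 elsewhere and a difference of -4.76 ± 0.63 (adjusted p = 0.00042). In both genes BAP procambium was the only group that was not dim, and with values raised to 5 the differences were -4.47 and -2.76. GH9B8 rose in procambium towards the higher cambium level and had a difference of -2.66, at least 3.05-fold. With values raised to 5 it was -1.61 and no longer called (adjusted p = 0.0618). GH9B13 and GH9B5 fell in procambium, with responses of -1.45 and -3.42, and had differences of 2.11 and 3.68 (limma, adjusted p = 0.0072 and 0.00327). GH9B5 was dim in all groups but untreated procambium, and its difference was 0.98 and not called with values raised to 5 (adjusted p = 0.163). Of 7 tubulin genes, 1 was called, TUB7 with 1.55 (adjusted p = 0.0337), and the median of the list was 1.24. TUB7 rose in cambium by 1.52 and was called in 3 of the 11 fits with 1 array left out, those without BAP procambium replicate 1, untreated cambium replicate 1 and untreated cambium replicate 3.

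Many of the largest negative differences belonged to genes that were highest in BAP procambium and low in the other groups. RCPG, for a pectin-degrading polygalacturonase of the root cap, lay at 2.47 to 3.75 on the 8 arrays of the other groups and at 10.34, 11.50 and 11 in BAP procambium. PPDK, for pyruvate orthophosphate dikinase, lay at 2.95 and 5.09 in untreated and at 10.69, 11.62 and 11.88 in BAP procambium, against 3.93 to 6.83 in cambium. The BAP procambium arrays stood clear of all others in both genes. The differences were -7.83 ± 1.16 for RCPG and -6.81 ± 1.13 for PPDK (limma, adjusted p = 0.000967 and 0.00202). With values raised to 5 they were -5.95 and -6.29 (limma, adjusted p = 0.000343 and 8.9e-05). The porphobilinogen synthase family gene hemb2 reached 11.30, 11.04 and 11.51 in BAP procambium and at most 4.78 elsewhere, with a difference of -7.37 ± 1.29 (limma, adjusted p = 0.00319). The multicopper oxidase-like gene sks16 reached 10.29, 10.60 and 10.55 and at most 5.24 elsewhere. Its difference was -5.81 ± 1.47 (limma, adjusted p = 0.0236), lost without BAP cambium replicate 2 (0.0554), BAP procambium replicate 3 (0.0513) or untreated procambium replicate 1 (0.0955).

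Several of these genes were also bright in cells that the labels place in procambium and lateral root cap. On the 2 arrays of ARR5::GFP cells from 6-day seedlings the mean log2 level was 14.01 for RCPG, 12.47 for sks16, 12.34 for hemb2, 10.43 for GH9B6, 10.39 for PPDK and 9.35 for GH9C1. Over the 245 probe sets that rose only in procambium and widened the gap, the median level in those cells was 9.06, beside 8.37 over the 151 that narrowed it, 8.10 over all 677 negative differences and 7.27 over all probe sets kept. The 245 belong to their class through a high level in BAP procambium. RCPG is the only gene of 6 root cap markers with a probe set in the annotation used, so the root cap list has 1 member, with a level above log2 10 on the 3 BAP procambium arrays and below 4 on the 8 others. The part of root cap cells in the difference was not tested. Among markers of other cell types, SGN3 of the endodermis, PEP of the cortex and EXPA7 of root hairs had differences that were not called (limma, adjusted p = 0.908, 0.768 and 0.181). EXPA7 stood at 2.39, 5.78 and 7.37 in BAP procambium and at 2.33 to 4.44 elsewhere.

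Other negative differences came from a rise in procambium to or past the level of cambium. JAL33, a jacalin-type lectin gene, stood at 10.17 and 8.83 in untreated and at 13.35, 13.34 and 13.69 in BAP procambium. Cambium lay at 13.25 to 13.50 without BAP and at 13.70 to 14.33 with it, so that untreated procambium alone was low. Its difference was -3.38 ± 0.41 (limma, adjusted p = 0.00022). STR18, for a sulfurtransferase, stood at 4.95 and 6.01 in untreated and at 9.94, 9.21 and 9.82 in BAP procambium, against 7.53 to 8.28 and 8.61 to 9.01 in cambium. Procambium was thus below cambium without BAP and above it with BAP, with no overlap. The difference for STR18 was -3.40 ± 0.48 (limma, adjusted p = 0.000724).

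Smaller negative differences belonged to genes known from several other processes. RTE1, which promotes an ethylene receptor, rose by 2.89 in procambium with a difference of -3.56 ± 0.63 (limma, adjusted p = 0.0033). WRKY53, a transcription factor gene of leaf senescence, rose by 2.27 in procambium with a difference of -2.73 ± 0.45 (adjusted p = 0.00182), and was the 1 call among 4 WRKY genes kept. SAG101, for a lipase-like partner in immune signalling, had a difference of -2.79 (limma, adjusted p = 0.0386). It was called in 3 of the 11 fits with 1 array left out, those without BAP cambium replicate 3, BAP procambium replicate 1 and untreated cambium replicate 2, and its adjusted p was 0.127 without untreated procambium replicate 2. PWD, whose enzyme phosphorylates starch, rose by 2.51 in procambium with a difference of -2.73 (adjusted p = 0.0121) that was lost without untreated procambium replicate 1 (0.0584). MAP1B, for a methionine aminopeptidase, had neither response called and a difference of -2.77 (adjusted p = 0.0344). It was lost without BAP cambium replicate 1 (0.0812), BAP procambium replicates 1 (0.0561) or 3 (0.0812), untreated cambium replicates 2 (0.0671) or 3 (0.0731), or untreated procambium replicates 1 (0.121) or 2 (0.0552).

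A fall in cambium alone gave 1 of the 15 named negative differences with a symbol. TPS-CIN, for a terpene synthase that makes cineole, stood at 8.99, 9.07 and 7.92 in untreated cambium and at 2.49, 4.75 and 2.44 in BAP cambium. All 5 procambium arrays were at 2.2, so that untreated cambium was the only group that was not dim. The gene fell by 5.43 in cambium, and the difference was -5.43 ± 0.85 (limma, adjusted p = 0.00147). With values raised to 5 it was -3.66 (limma, adjusted p = 0.00129).

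Genes known here only by a locus code included larger differences. AT3G05730 stood at 9.51, 10.95 and 13.55 in untreated cambium and at 2.17 on the 3 BAP cambium arrays, with all procambium arrays at 2.17 or 2.18. The difference of -9.16 ± 1.00 (limma, adjusted p = 0.000118) was thus a loss in cambium of a signal that procambium lacked. Untreated cambium was the only group that was not dim, and with values raised to 5 the difference was -6.34 (limma, adjusted p = 0.00111). The SD was 2.05 in untreated cambium and at most 0.01 in the other groups of the contrast, and the fit pools these into 1 spread. AT3G59480 fell in cambium from 9.48, 9.50 and 9.26 to 7.19, 6.84 and 8.19, and rose in procambium from 4.45 and 3.6 to 8.86, 9.09 and 9.61. Here BAP reversed which zone was higher, with no overlap before or after. Its difference was -7.17 ± 0.63 (limma, adjusted p = 3.56e-05), at least 73.4-fold with dim groups set to log2 5. AT1G50060, AT3G61930 and AT4G27400 were bright in BAP procambium, at 11.25 to 13.62, with differences of -7.79, -7.80 and -7.87 (limma, adjusted p = 0.00189, 0.00155 and 0.000195). They averaged 14.15, 13.89 and 13.13 on the ARR5::GFP arrays. AT1G50060 also reached 5.52 on untreated procambium replicate 2 and 6.43 on BAP cambium replicate 3, and AT3G61930 6.53 and 5.12 on the same arrays.

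On the positive side AT2G33850 stood at 3.83, 4.85 and 3.89 in untreated cambium and at 10.04, 10.97 and 9.99 in BAP cambium, with all procambium arrays at 2.17 to 2.62. It was bright in BAP cambium alone, with a difference of 5.99 ± 0.64 (limma, adjusted p = 9.05e-05). AT5G23400 rose in cambium by 3.71 and fell in procambium by 2.48, a difference of 6.19 ± 0.85 (adjusted p = 0.00059). AT1G79620 fell in procambium by 4.43 and AT1G52560 rose in cambium by 4.04, with differences of 4.78 and 3.76 (limma, adjusted p = 0.0103 and 0.00325). AT5G44400 rose in both zones, by 4.52 in cambium and 2.15 in procambium, with a difference of 2.37 (limma, adjusted p = 0.0389). Its procambium levels of 2.29 on both untreated arrays and 3.35, 4.33 and 5.62 with BAP lay mostly below log2 5, and with values raised to 5 the difference was 4.31. It was called in 2 of the 11 fits with 1 array left out, those without BAP procambium replicate 3 and untreated cambium replicate 2, with an adjusted p of 0.0947 without untreated procambium replicate 1.

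**Figure D4:**
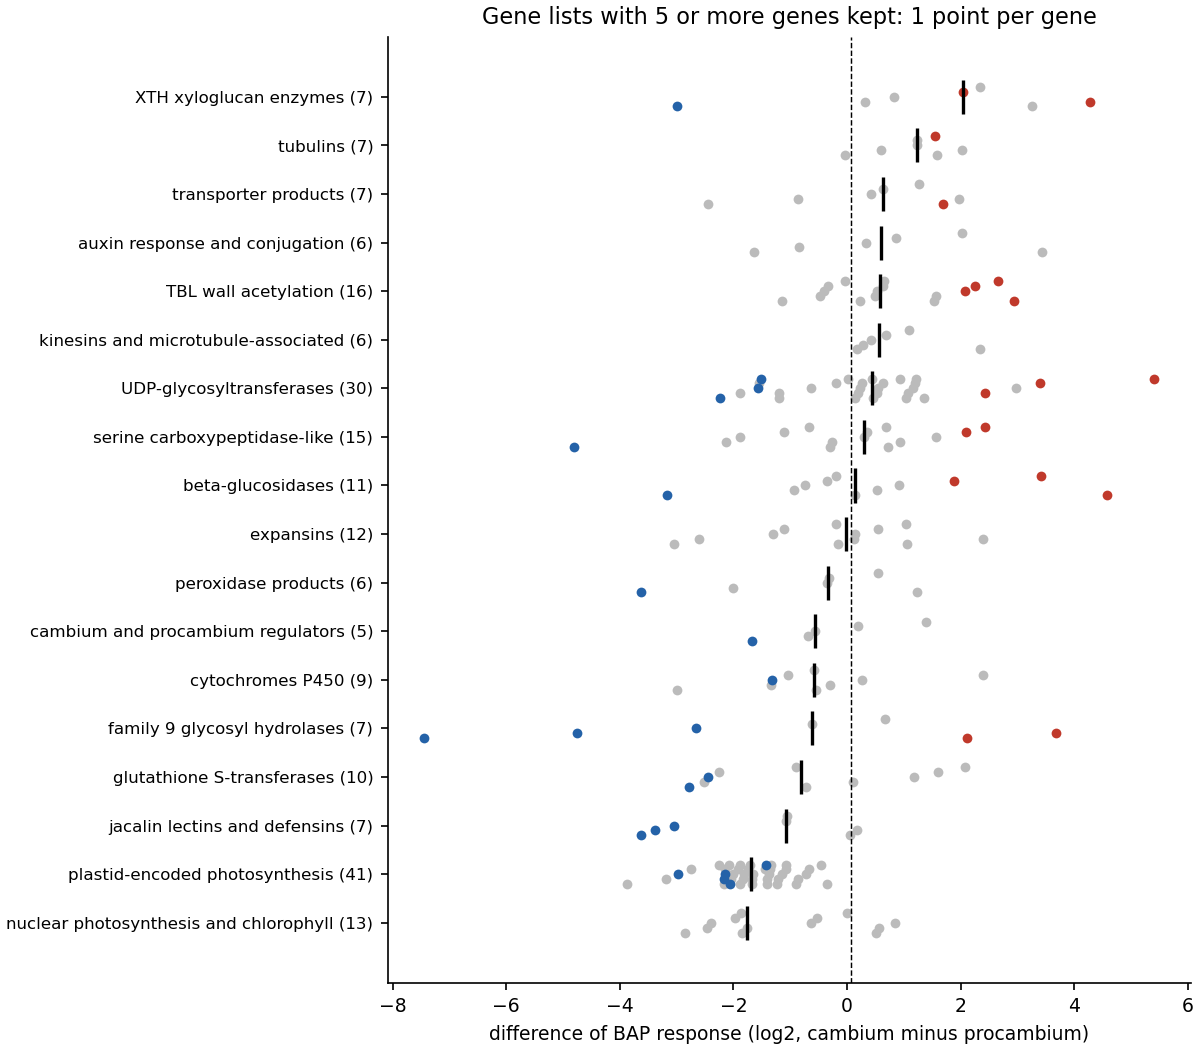
Difference of BAP response (x axis, log2, cambium minus procambium) for each gene of the lists with 5 or more genes kept (number in brackets). Red and blue points are called positive and negative differences, grey points were not called, vertical bars are list medians and the dashed line is the median of 0.07 over all probe sets kept. Plastid-encoded photosynthesis genes lie to the left of 0 together, and family 9 glycosyl hydrolases spread to both sides.

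Genes of photosynthesis encoded in the plastid had negative differences in these arrays, from -3.88 for petL to -0.36 for psaI, although few passed the test. Of 41 kept, 5 were called negative and none positive, with a median difference of -1.69, made of a median response of -1.13 in cambium and 0.45 in procambium. Beside this, 5.11% of all 7010 genes kept were called negative. The called genes were psbI and psbM of photosystem II, ndhC and ndhI of the plastid NADH dehydrogenase-like complex and petG of the cytochrome complex. psbI stood at 12.40, 12.50 and 11.91 in untreated and 11.78, 11.85 and 11.37 in BAP cambium, against 8.68 and 9.75 in untreated and 10.26, 10.99 and 10.76 in BAP procambium. Its difference of -2.06 ± 0.41 (limma, adjusted p = 0.0065) held in all 11 fits with 1 array left out. The calls of psbM (-2.16) and petG (-2.98) were lost without untreated procambium replicate 1 (adjusted p = 0.102) and untreated procambium replicate 2 (adjusted p = 0.0529), and petG was -1.29 with values raised to 5. That of ndhC (-1.43) held only without BAP cambium replicate 2, and that of ndhI (-2.15) only without BAP cambium replicate 2, BAP procambium replicate 1 or untreated cambium replicate 3. Of all 63 plastid genes kept, 62 had a difference below 0 and 6 were called. Their median was -1.55, beside 0.05 over all 7010 genes kept. None of 13 nuclear genes of photosynthesis and chlorophyll was called, while the median of these 13 was -1.76.

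The other enzyme and defence families gave calls in both directions or in 1. Of 30 UDP-glycosyltransferase genes kept with a UGT symbol, 3 were called positive and 3 negative, with a median of 0.45. Over all 7010 genes kept, 3.54% were called positive and 5.11% negative. These shares are the background for each family count that follows. The glycosyltransferase gene GT72B1 (2.91), described above, lacks that symbol and is not among the 30. UGT84A4 stood at 2.45 to 2.88 in untreated and at 6.43, 6.44 and 6.18 in BAP cambium, and at 6.02 and 5.23 in untreated and 2.70, 4.94 and 4.26 in BAP procambium. Its difference of 5.41 ± 0.80 (limma, adjusted p = 0.000965) was 1.98 with values raised to 5, at least 3.93-fold. UGT72E3 (3.40) and UGT71B1 (2.43) were also positive, and UGT87A2 (-2.23), UGT71B5 (-1.56) and UGT76C2 were negative. With values raised to 5 UGT72E3 was 0.43 and UGT71B5 -0.48, and neither was called (adjusted p = 0.454 and 0.254). UGT84A4 held in all 11 fits with 1 array left out. The positive calls of UGT72E3 and UGT71B1 were lost without untreated procambium replicate 1 (adjusted p = 0.139 and 0.149) or BAP cambium replicates 1 or 3. That of UGT71B1 was also lost without BAP procambium replicates 1 or 3 or untreated cambium replicate 2. UGT87A2 was called in 4 of these fits, those without BAP cambium replicate 3, BAP procambium replicate 1, untreated cambium replicate 3 and untreated procambium replicate 1, and UGT71B5 in 1, that without BAP procambium replicate 1. Both reached an adjusted p of 0.12, UGT87A2 without untreated procambium replicate 2 and UGT71B5 without BAP procambium replicate 3.

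Of 11 beta-glucosidase genes, BGLU47, BGLU28 (3.41) and BGLU15 (1.89) were positive and BGLU44 (-3.16) was negative, and BGLU28 was lost without either untreated procambium array (adjusted p = 0.0548 and 0.0529). With values raised to 5 BGLU28 was 0.99 and BGLU44 -1.03, at least 2.04-fold, and neither was called (adjusted p = 0.172 and 0.151). Of 15 serine carboxypeptidase-like genes, scpl35 and SCPL45 (2.1) were positive and scpl28 (-4.81) was negative, the last lost without either untreated procambium array (adjusted p = 0.0635 and 0.0507) and -2.34 with values raised to 5 (adjusted p = 0.179). Genes with a JAL or PDF symbol, not all of them for lectins or defensins, gave 3 negative calls among 7 kept. These were the lectin genes JAL33 and JAL22 (-3.05) and the defensin gene PDF2.1 (-3.62). PDF2.1 was dim in untreated procambium, and with values raised to 5 it was -1.26, at least 1.98-fold, and not called (adjusted p = 0.256). JAL22 was lost without BAP cambium replicates 1 (0.0565) or 3 (0.0622), BAP procambium replicate 3 (0.0538) or untreated cambium replicate 1 (0.0557). Their relative JAL34 stood at 12.85 to 13.70 on all 11 arrays with a difference of 0.17 (limma, adjusted p = 0.717). Glutathione S-transferase genes, whose products detoxify, gave 2 negative calls among 10: GSTL3 (-2.78) and GSTU25 (-2.44). GSTU25 stood at 10.92 to 11.50 over the 6 cambium arrays, at 11.76 and 10.99 in untreated procambium and at 13.87, 14.22 and 14.33 in BAP procambium, which lay above all others (limma, adjusted p = 0.00327). The cytochrome P450 gene CYP71B6 (-1.32) was the 1 call among 9 genes kept by a CYP symbol, not all of them P450 genes. Single calls also came from the peroxidase gene AT5G64120 (-3.62, 1 of 6) and the organic cation transporter gene OCT5 (1.69, 1 of 7 transporter genes). In this order the calls held in 6, 1 and 6 of the 11 fits with 1 array left out. CYP71B6 was lost without BAP cambium replicates 1 or 3, untreated cambium replicates 2 or 3 or untreated procambium replicate 1 (adjusted p = 0.0863). OCT5 was lost without BAP cambium replicates 2 or 3, BAP procambium replicate 3, untreated cambium replicate 2 or untreated procambium replicate 1 (adjusted p = 0.113). AT5G64120 was called only without BAP cambium replicate 2, and its adjusted p reached 0.162 without untreated procambium replicate 2, and 0.0522 with values raised to 5.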

How the data were processed

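Affymetrix ATH1 arrays measured RNA of sorted protoplasts. The authors deposited log2 signals, and the submitters' processing notes name GCRMA; which arrays were normalized together is not given in the sources used here. Every array has the same lowest log2 value of 2.169. Groups follow the labels, which number biological replicates within each. They give no batch or date, so treatment and batch cannot be told apart.

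The 16 ARR15::GFP arrays were fitted with limma 3.58.1 in R 4.3.3, with a mean per group and an intensity trend (10 residual degrees of freedom). The 3 groups of the contrast with 3 arrays, the 1 with 2 and the transition zone groups share 1 estimate of the spread. Probe sets with at least 2 arrays at log2 5 or more were kept and control probe sets were left out. Arrays give no read depth, and their number limits the precision. The fit was tested on simulated data. Alternatives were the arrays fitted, filter, trend, scaling, floor, replicate block and leaving out each array.

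Of 22746 probe sets, 13513 have 1 gene in the annotation used, and 1027 of the 7010 genes kept have a symbol. Named genes are the 15 largest differences each way with a symbol and the 5 each way with a locus code (adjusted p at most 0.05, size at least 1, ranked after raising values below log2 5), and members of 42 gene lists, 34 of which have a gene kept. Members and lists were chosen with earlier results of these data known. List examples were chosen after their values were seen. Product patterns could be matched only through gene synonyms, so that 7 lists have no annotated gene. Lists matched by symbol also hold genes that only share a name, such as PDF1A, PDF1B, CYP59 and CYP71. RCPG and PEP are named from these lists, since the reference table gives only locus codes. Promoter sequences were not used here, so the planned motif search was not run.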

Additional observations from a re-analysis of the deposited data

Results flagged for a closer look

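The 2 zones differed in their response to BAP for 1184 probe sets by a test of the difference itself (limma, adjusted p at most 0.05). The groups hold 2 or 3 arrays, too few to look for outlying arrays. All values below are differences of response on the log2 scale, cambium minus procambium.

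Positive differences belonged to the protease gene NANA (6.06), ATMYC1 (4.28), AUR1 (3.25), BGLU47 (4.57), BGLU28 (3.41), BGLU15 (1.89), GT72B1 (2.91), ACT11 (2.89), DRT100 (2.71), ATMPK13 (2.34), scpl35 (2.43), SCPL45 (2.1), B120 (2.44), APS3 (2.27), SAH7 (2.21) and OCT5 (1.69). In wall families they were 4.28 for XTH21, 2.05 for XTH32, 2.94 for TBL37, 2.65 for TBL34, 2.26 for TBL30, 2.08 for TBL38, 2.11 for GH9B13 and 3.68 for GH9B5. UGT84A4 (5.41), UGT72E3 (3.40), UGT71B1 (2.43) and TUB7 (1.55) were positive too. By locus code they were 6.19 for AT5G23400, 5.99 for AT2G33850, 4.78 for AT1G79620, 2.37 for AT5G44400 and 3.76 for AT1G52560. Outside the lists, values chosen after they were seen were 4.36 for the subtilase gene SBTI1.1, 2.95 for the small heat shock gene ATHSP22.0, 2.57 for IQD26, 1.87 for IQD28, 2.13 for THE1, 1.93 for SPK1, 1.38 for ATMAP65-6, 1.51 for ATERDJ3B and 1.15 for CRT1b. With values below log2 5 raised to 5, SBTI1.1 was 2.19 and ATHSP22.0 1.04, and neither was called (limma, adjusted p = 0.0769 and 0.0937). CRT1b was called in only 4 of the 11 fits with 1 array left out.

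Negative differences belonged to RCPG (-7.83), GH9B6 (-7.44), hemb2 (-7.37), PPDK (-6.81), sks16 (-5.81), TPS-CIN (-5.43), scpl28 (-4.81), GH9C1 (-4.76), GH9B8 (-2.66), XTH20 (-3.00), RTE1 (-3.56), STR18 (-3.40), JAL33 (-3.38), JAL22 (-3.05), PDF2.1 (-3.62), BGLU44 (-3.16), SAG101 (-2.79), MAP1B (-2.77), WRKY53 (-2.73) and PWD (-2.73). GSTL3 (-2.78), GSTU25 (-2.44), UGT87A2 (-2.23), UGT71B5 (-1.56), UGT76C2 (-1.51), CYP71B6 (-1.32), ARR16 (-1.92), CLE41 (-1.67) and LBD16 (-2.26) were negative too. The plastid genes were petG (-2.98), psbM (-2.16), ndhI (-2.15), psbI (-2.06) and ndhC (-1.43). By locus code they were -9.16 for AT3G05730, -7.87 for AT4G27400, -7.80 for AT3G61930, -7.79 for AT1G50060, -7.17 for AT3G59480 and -3.62 for AT5G64120. Outside the lists, values chosen after they were seen were -2.88 for BAT1, -2.58 for MT1C, -2.55 for ATG8B, -1.70 for ATG8D, -1.65 for ATG8F, -2.11 for PUB22, -2.06 for PUB24 and -2.03 for DPE1. PUB24 was called in only 2 of the 11 fits with 1 array left out, and was -1.18 without untreated procambium replicate 2.

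The ARR5::GFP arrays enter no comparison. Only genes named by the size of their difference, and of these only the negative ones, were compared with them here. Each ARR5::GFP array lay above every cambium and procambium array, with or without BAP, for some of these genes. They were, with the mean log2 level of the ARR5::GFP arrays, AT1G50060 (14.15), RCPG (14.01), AT3G61930 (13.89), AT4G27400 (13.13), sks16 (12.47), hemb2 (12.34) and MAP1B (10.24).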

How the results depend on the processing

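Of 1184 called probe sets, none changed sign under the alternatives run, except 2 when values below log2 5 were raised to 5, and the share of them called ran from 54.0% to 96.6%. It was lowest under the renumbered replicate block (54.0%), without untreated procambium replicate 1 (57.4%) or 2 (61.1%) and without BAP cambium replicate 1 (61.3%), and was 74.9% with only the 11 arrays, 71.5% with no filter and 81.8% after raising. Leaving out 1 array gave 741 to 1156 calls, 294 to 521 positive and 434 to 646 negative, with 1019 to 2299 for the BAP response in cambium and 1185 to 1950 in procambium. The correlation of same-numbered arrays' deviations from their group means ran from -0.523 to 0.278, and that of other pairs from -0.345 to 0.523. In groups of 2 or 3 arrays such deviations depend on each other. They cannot show whether the replicate numbers pair the samples. The replicate block gave 889 calls. A replicate block over the 11 arrays, with untreated procambium replicate 2 numbered 3 as in the first part of its title, gave 667 calls, 259 positive and 408 negative, with 1092 in cambium and 1153 in procambium. The cause was not tested beyond the residual degrees of freedom, which fall from 10 to 5. Of 90 called genes named, 51 kept the call without any 1 array and 75 after raising. Among the genes followed by name, reversed values belong to genes that were not called: SGN3 (0.14) and PEP (-0.09) after raising. Other members of the gene lists that were not called also changed sign after raising, among them EXLB1 (1.06 to -1.64). With 1 array left out, values ranged from -1.28 to 0.21 for SGN3, -0.09 to 2.79 for PEP, -0.88 to 0.31 for AUR3, -0.57 to 0.14 for ARR15, -0.10 to 1.25 for OPS, -0.55 to 1.24 for GH3.3 and -1.86 to 0.18 for GH3.5.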

Other observations

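Some genes outside the lists, chosen after their values were seen, belong to families that the text above does not cover. Of 7 ATG8 genes kept, whose products coat autophagosomes, 3 were called, all negative, with a median difference of -1.65 over the 7, beside 5.11% negative calls over all genes kept. ATG8F stood at 11.46, 11.59 and 11.19 in untreated and at 9.84, 10.38 and 10.24 in BAP cambium, against 11.02 to 11.70 over the 5 procambium arrays. BAP cambium alone was low, and the difference was -1.65 ± 0.31 (limma, adjusted p = 0.00474). ATG8B and ATG8D were called in 4 of the 11 fits with 1 array left out, and without untreated procambium replicate 1 their adjusted p was 0.169 and 0.164. ATG8B was -2.38 and not called with values below log2 5 raised to 5 (adjusted p = 0.0523). The metallothionein gene MT1C fell by 1.53 in cambium and rose by 1.05 in procambium (limma, adjusted p = 0.00134). DPE1, for the disproportionating enzyme of starch breakdown in the plastid, rose by 2.34 in procambium and had a difference of -2.03 (limma, adjusted p = 0.00648).

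THE1, a receptor kinase gene that senses the state of the cell wall, stood at 9.77, 9.25 and 9.43 in untreated and 10.19, 10.64 and 10.26 in BAP cambium. In procambium it stood at 10.71 and 10.77 without BAP and at 9.42, 9.77 and 9.27 with it. BAP thus reversed which zone was higher, with no overlap, and the difference was 2.13 ± 0.33 (limma, adjusted p = 0.00142). Of 8 IQD genes kept, for calmodulin-binding proteins, 2 were called positive, IQD26 and IQD28, with a median of 1.28 over the 8, beside 3.54% positive calls over all genes kept. IQD26 was 0.98 with values raised to 5. IQD28 was lost without BAP cambium replicate 3 (0.0557), untreated cambium replicate 3 (0.0501) or untreated procambium replicates 1 (0.0547) or 2 (0.069).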
